A study of Mus musculus with 7 samples.

Results

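The septin scaffold of adult oligodendrocytes was described here through 5 genes, namely the septins Sept2, Sept4, Sept7 and Sept8 and the septin-binding protein anillin (Anln). They were taken from the deposited count table by symbol, as 5 of its 27998 genes, and each symbol was listed once. The cells were sorted from P90 mice on a C57BL/6-B6CBA background, both sexes being used. Their tissue is given as motor and cingulate cortex in the labels and as neocortex in the study's methods. Control dOLCs, the oligodendrocyte lineage cells (OLCs) of dorsal origin, were the TdTom+ cells of Emx1-Cre:Sox10-GFP-TdTom animals, and control vOLCs, of ventral origin, were the GFP+ cells of the same genotype. Ectopic vOLCs were the GFP+ cells of animals that had Emx1-Cre and the Sox10-GFP-tdTom reporter and, in addition, the Sox10-GFP-DTA allele, with which diphtheria toxin A removes the OLCs of the Emx1 lineage. All 3 groups thus carried Emx1-Cre and the Sox10 reporter, and the ectopic group alone carried the toxin. Cells of several mice were pooled in each library and cannot be told apart. With 1 library per group, no comparison between groups had a replicate and none was tested.

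Septins are GTP-binding proteins that assemble with one another into rod-shaped complexes and then into filaments beneath the plasma membrane. Anillin links septins to actin and myosin and is best known from the cleavage furrow of dividing cells. In the CNS, Sept2, Sept4, Sept7 and Sept8 also build, together with anillin, filaments along the innermost, non-compacted layer of the mature myelin sheath, where they stabilise the sheath against outfoldings. The lineage examined here runs from the oligodendrocyte precursor cell (OPC) through committed and newly formed cells (COP, NFOL) and myelin-forming cells (MFOL) to mature oligodendrocytes (MOL), of which MOL2 and MOL5/6 are alternative mature states.

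The deposited annotation kept 9291 cells, of which 5804 were control dOLCs, 925 were control vOLCs and 2562 were ectopic vOLCs, and these held 23078181, 4846391 and 14293675 UMIs (deduplicated transcript tags). Cells of the same cluster and library were summed, and a level is given as CPM, the UMIs of a gene per 1000000 UMIs of all genes in that sum. Each molecule is tagged once at its 3' end, so CPM were not divided by transcript length, and they are compared here between clusters and libraries for 1 gene at a time. The bracketed ranges are exact 95% intervals, from the Poisson distribution for levels and from the conditional binomial distribution for log2 ratios. Such intervals describe the error of counting alone and hold nothing of the variation from mouse to mouse. The 11 clusters were built by the study from the same expression values, so differences between clusters are descriptions. Levels are given where a cluster held at least 20 cells of a library, except for the markers below, where the MFOLb and COP/NFOL/MFOLa clusters of control vOLCs held 8 and 13 cells, and where stated otherwise. The OPC cluster carried all 5 OPC markers examined (Pdgfra, Cspg4, C1ql1, Cacng4 and Tnr) at a summed 5786 to 7775 CPM, against 41.3 to 102.3 CPM in MOL5/6. The 11 markers of mature oligodendrocytes used (Mbp, Mag, Mog, Mobp, Cnp, Cldn11, Mal, Ermn, Trf, Car2 and Apod) summed to 48730.2 to 56544 CPM in MOL5/6. In OPCs and MOL5/6, in that order, 4 neuron markers summed to 1090.1 to 1262 and 7.88 to 18.3 CPM, 5 astrocyte markers to 602 to 666 and 170.2 to 198 CPM, and 5 microglia markers to 78.1 to 109 and 29.5 to 34.6 CPM. The MFOLb cluster stood apart from its neighbours in astrocyte markers. There the 5 markers (Aqp4, Gja1, Slc1a2, Aldoc and Gfap) summed to 2700.2 CPM in control dOLCs, 3309 CPM in control vOLCs and 2163 CPM in ectopic vOLCs, against 58.2, 91.8 and 80.3 CPM in COP/NFOL/MFOLa cells, with Gfap at 0 in control vOLCs. Gja1, the main gap junction protein of astrocytes, had 195 to 406 CPM in MFOLb cells and at most 2.76 CPM in OPCs, COP/NFOL/MFOLa and MOL5/6 cells. Of the 157 MFOLb cells, 151 held 2 or more UMIs of these markers (96.2%), as did 9.01% of COP/NFOL/MFOLa, 54.1% of OPC and 19.9% of MOL5/6 cells. MFOLb cells also carried the mature oligodendrocyte markers, at 39625 to 46382 CPM. In control dOLCs, 101 MFOLb cells with 2 or more astrocyte UMIs held 484492 of the cluster's 499597 UMIs. The same barcodes thus carried both sets of markers, and why they did was not tested. The MOL1 cluster carried 5 genes of the dissociation response (Fos, Jun, Egr1, Hspa1a and Hspa1b) at 2734 to 3977 CPM, against 192 to 221 CPM in MOL5/6. Among the kept cells, 39 barcode sequences occurred in more than 1 library, and leaving out those 78 cells kept every ratio of a member between libraries in OPCs and in MOL5/6 as a whole, the only clusters recomputed, within its interval.

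All 5 genes could be placed on GRCm38, the build named in the submitters' processing notes (mm10), with GENCODE vM21. Sept2 (ENSMUSG00000026276.20) spans chr1:93478964-93510260 on the plus strand. Sept4 (ENSMUSG00000020486.18) lies at chr11:87568903-87590539 and Sept8 (ENSMUSG00000018398.18) at chr11:53519257-53549565, both on the plus strand. Sept7 (ENSMUSG00000001833.17) is at chr9:25252439-25308571 on the plus strand, and Anln (ENSMUSG00000036777.8) is at chr9:22332012-22389188 on the minus strand. Gene models that overlap Sept4, Sept7 or Anln lie at least 21289 bases from the member's 3' end, where the tags arise. The last 500 bases of the coding transcripts of all 5 genes had no match of 90 bases or more at 95% identity in transcripts under another symbol. The symbol Sept2 has 2 gene models, of which the wider is placed above. Overlaps and matches between models of the same symbol were not sought.

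The promoter sequences of Sept4, Sept8 and Anln, the members whose transcripts differed most between precursors and mature cells, are given here. They run from 250 bases before to 50 bases after the RefSeq start site on GRCm38.p6, 5' to 3' on the gene's strand, at the most downstream start listed. Motifs of a pair of oligodendrocyte transcription factors were searched on both strands, namely the SOX core ACAAAG, bound by Sox10 and its relatives, and the MYRF motif CTGGCAC or CTGGTAC. Capitals mark a match. Among the 32851 promoters of the table, 18.7% held the SOX letters and 7.10% the MYRF letters.
Sept4, chr11:87580811-87581110, plus strand: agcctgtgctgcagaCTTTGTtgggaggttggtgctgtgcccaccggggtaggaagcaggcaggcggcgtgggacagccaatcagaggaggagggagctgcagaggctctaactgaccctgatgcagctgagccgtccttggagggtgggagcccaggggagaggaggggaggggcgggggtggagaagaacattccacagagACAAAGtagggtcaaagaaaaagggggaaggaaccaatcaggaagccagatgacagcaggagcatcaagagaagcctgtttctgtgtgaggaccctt
Sept8, chr11:53519938-53520237, plus strand: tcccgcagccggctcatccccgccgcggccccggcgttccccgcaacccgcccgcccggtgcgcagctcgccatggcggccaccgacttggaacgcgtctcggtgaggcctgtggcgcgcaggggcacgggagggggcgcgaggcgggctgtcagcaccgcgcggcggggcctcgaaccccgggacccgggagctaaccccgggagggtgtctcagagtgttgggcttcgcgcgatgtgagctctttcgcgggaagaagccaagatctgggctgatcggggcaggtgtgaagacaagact
Anln, chr9:22389157-22389456, minus strand: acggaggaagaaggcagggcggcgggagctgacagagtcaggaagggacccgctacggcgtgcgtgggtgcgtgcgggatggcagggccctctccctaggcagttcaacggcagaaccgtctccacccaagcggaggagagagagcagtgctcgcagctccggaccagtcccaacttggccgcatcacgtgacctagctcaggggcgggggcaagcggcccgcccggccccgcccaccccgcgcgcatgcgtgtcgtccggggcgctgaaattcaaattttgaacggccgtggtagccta
The Sept4 window held the SOX letters at positions -235 and -47 relative to the start site, and the other windows shown held neither motif. The windows at the other 3 Sept4 starts held neither, and 1 of the 2 Sept7 windows (not shown) held the SOX letters at -83. The Anln and Sept8 windows were rich in G and C (67.7 and 72.3%, against a median of 52.7% over all promoters), and the Sept4 window had 59.0%. The 3' tags do not show which start site a transcript used, and RefSeq lists 4 starts for Sept4 and 2 for Sept8.

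Sept4, the septin of the myelin scaffold with the largest step from OPCs to COP/NFOL/MFOLa cells, was lowest in OPCs of every library. Its level in OPCs was 713 CPM in control dOLCs, 372 CPM in control vOLCs and 401 CPM in ectopic vOLCs. In COP/NFOL/MFOLa cells it had reached 2285 CPM in control dOLCs and 2597 CPM in ectopic vOLCs. The log2 ratio of COP/NFOL/MFOLa to OPCs was 1.68 (1.57 to 1.79) in control dOLCs and 2.70 (2.50 to 2.89) in ectopic vOLCs, and the control vOLC cluster, with 13 cells, was too small to compare. In MOL5/6 the gene stood at 3272 CPM in control dOLCs, 3377 CPM in control vOLCs and 3879 CPM in ectopic vOLCs. The MOL5/6 level was above the OPC level by a log2 ratio of 2.20, 3.18 and 3.27 in the 3 libraries in that order. In control dOLCs and ectopic vOLCs most of the step thus lay between OPCs and COP/NFOL/MFOLa cells. That cluster joins committed, newly formed and some myelin-forming cells, so the step cannot be placed within it.

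Sept8, a septin of the same filaments, did not share this early step. It measured 222 CPM in control dOLCs, 157 CPM in control vOLCs and 151 CPM in ectopic vOLCs in OPCs. In COP/NFOL/MFOLa cells it was 197 CPM in control dOLCs and 174 CPM in ectopic vOLCs, log2 ratios to OPCs of -0.17 (-0.50 to 0.14) and 0.21 (-0.44 to 0.81). These intervals include 0, while those of Sept4 lay wholly above 1. In MFOLb cells Sept8 was 460.4 and 501 CPM, log2 ratios to OPCs of 1.05 (0.83 to 1.28) and 1.73 (1.39 to 2.07). Its level in MOL5/6 was 492 CPM in control dOLCs, 573 CPM in control vOLCs and 577 CPM in ectopic vOLCs, near the MFOLb level. The astrocyte markers of the MFOLb cluster given above moved with these values, and their part in the MFOLb values of Sept8 was not tested, since the 6 MFOLb cells with fewer than 2 of their UMIs were too few to compare.

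Anln was followed over the same clusters. It was scarce in OPCs, with 97, 5 and 11 UMIs over 853, 121 and 330 cells, or 36.9 CPM in control dOLCs, 12.7 CPM in control vOLCs and 9.15 CPM in ectopic vOLCs. COP/NFOL/MFOLa cells held 20 UMIs in control dOLCs and 4 in ectopic vOLCs (40.1 and 26.8 CPM). In MFOLb cells the level was 140.1 CPM (109 to 177) in control dOLCs and 119 CPM (80.5 to 170.3) in ectopic vOLCs. In control dOLCs the log2 ratio to OPCs was 0.12 (-0.65 to 0.82) in COP/NFOL/MFOLa and 1.92 (1.46 to 2.38) in MFOLb cells. In ectopic vOLCs these ratios were 1.55 (-0.56 to 3.30) and 3.70 (2.67 to 4.85), the first from 4 and 11 UMIs and with an interval that includes 0. As for Sept8, the part of the astrocyte markers in the MFOLb value was not tested.

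Sept7, a subunit of nearly all septin complexes, varied less. It was 1019 CPM in control dOLCs, 757 CPM in control vOLCs and 903 CPM in ectopic vOLCs in OPCs and 1439, 1404 and 1439 CPM in MOL5/6 in the same order, log2 ratios of 0.50, 0.89 and 0.67. Sept2, a subunit of the complex with Sept6 and Sept7, was 72.4 CPM in control dOLCs, 63.3 CPM in control vOLCs and 78.2 CPM in ectopic vOLCs in OPCs. In MOL5/6 it was 103, 111 and 92.1 CPM, log2 ratios to OPCs of 0.51 (0.29 to 0.73), 0.80 (0.22 to 1.45) and 0.24 (-0.070 to 0.56). The ectopic interval includes 0.

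**Figure D1:**
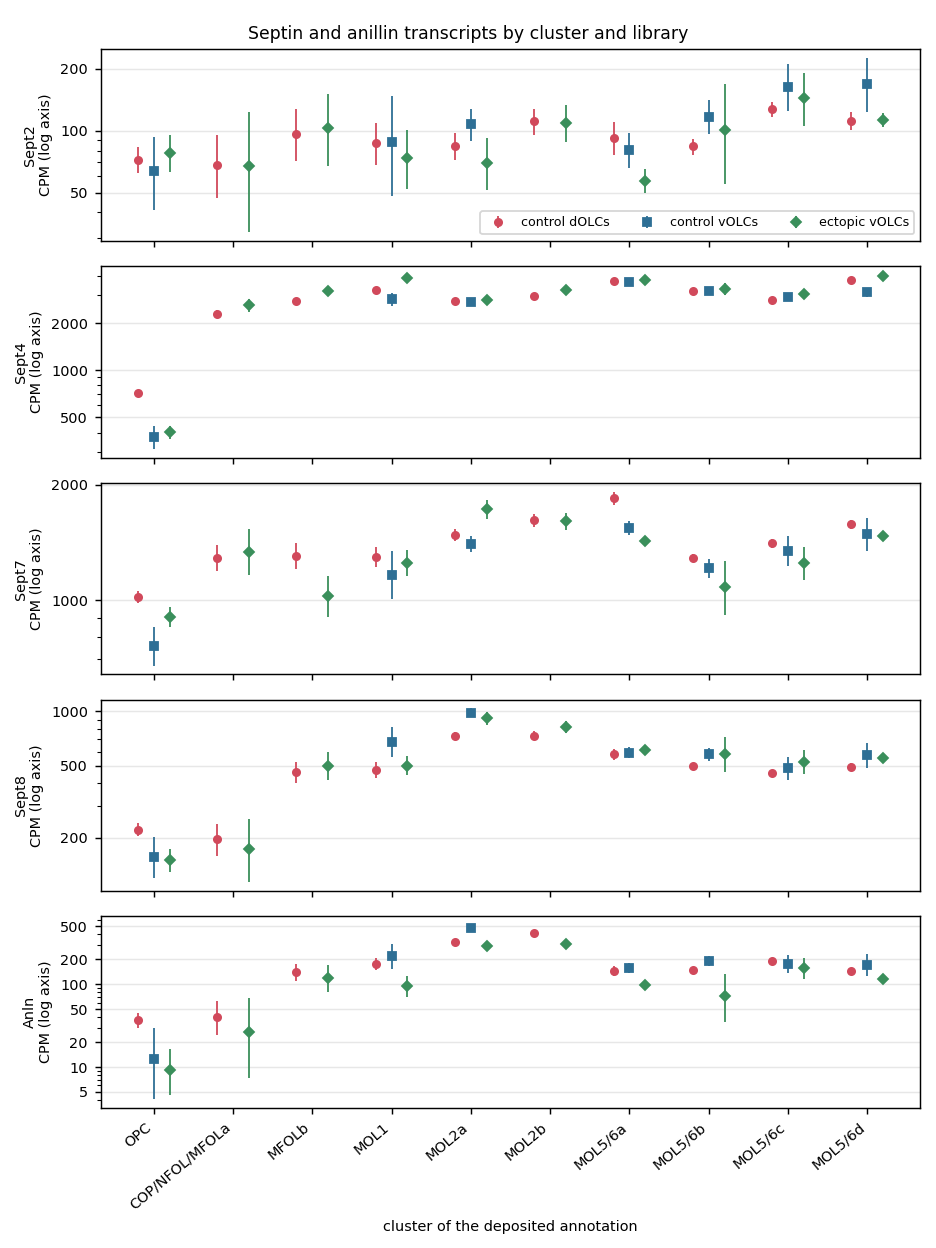
CPM of each gene (log axis) by cluster of the deposited annotation, with exact 95% Poisson intervals for the sums over cells. Circles are control dOLCs, squares control vOLCs and diamonds ectopic vOLCs, and clusters with under 20 cells of a library and cycling OPCs are not drawn. Sept4 is already high in COP/NFOL/MFOLa cells, whereas Sept8 and Anln stand above their OPC level from MFOLb cells on and are highest in MOL2 cells.

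The make-up of the septin UMIs differed accordingly between OPCs and mature cells. Of all UMIs of the 13 septin genes in the table, Sept4 took 32.7, 23.8 and 23.6% in OPCs of control dOLCs, control vOLCs and ectopic vOLCs. In MOL5/6 its share was 61.0, 61.1 and 64.1%. Sept7 took 46.7, 48.5 and 53.2% in OPCs and 26.8, 25.4 and 23.8% in MOL5/6. The shares of Sept8 were closer, at 10.2, 10.0 and 8.88% in OPCs and 9.18, 10.4 and 9.53% in MOL5/6, and they reached 14.3, 18.6 and 16.4% in MOL2a cells. A share of tags within a family is a share of tagged molecules and takes no account of how well each transcript's 3' end is captured.

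**Figure D2:**
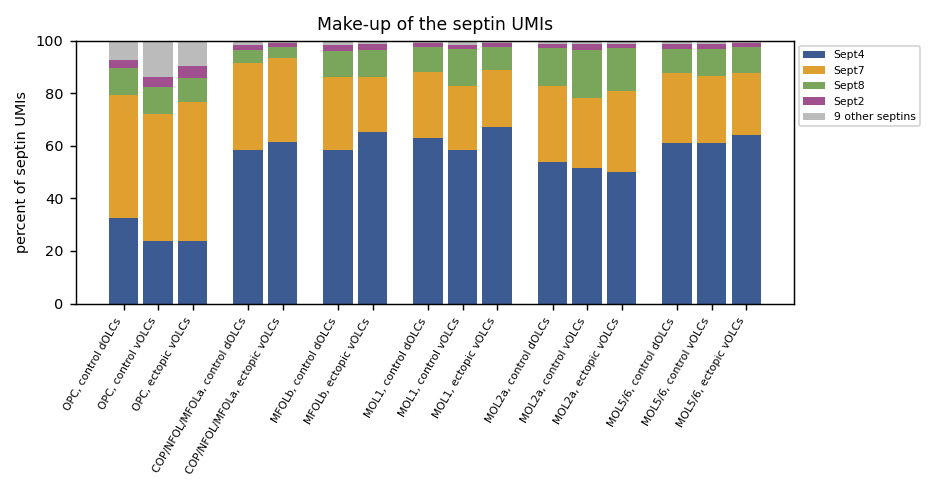
Percent of all septin UMIs (vertical axis) that came from each of 4 septins and from the other 9 together, each bar being 1 cluster of 1 library with at least 20 cells and adding up to 100%, with MOL5/6 as a whole and MOL2b not drawn. Sept4 forms the largest part of every bar except in OPCs, where Sept7 does.

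Between MOL2a and MOL5/6 as a whole, Anln and Sept8 differed more than the other 3 genes. Anln in MOL2a cells was 328 CPM in control dOLCs, 479 CPM in control vOLCs and 292 CPM in ectopic vOLCs, against 160.2, 172 and 110.4 CPM in MOL5/6. The log2 ratios of MOL2a to MOL5/6 were 1.03 (0.91 to 1.16), 1.47 (1.30 to 1.65) and 1.40 (1.18 to 1.62). In MOL2b cells Anln was 421 CPM in control dOLCs and 305 CPM in ectopic vOLCs, its highest level in both libraries, and the 6 MOL2b cells of control vOLCs were too few to use.

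Sept8 in MOL2a cells was 732 CPM in control dOLCs, 982 CPM in control vOLCs and 915 CPM in ectopic vOLCs, log2 ratios to MOL5/6 of 0.57 (0.49 to 0.65), 0.78 (0.67 to 0.89) and 0.67 (0.55 to 0.78). For Sept4 the same ratio was of opposite sign, -0.24, -0.31 and -0.48. Sept7 gave 0.038, -0.0044 and 0.26, and Sept2 gave -0.29, -0.044 and -0.40. The order of clusters was therefore different for Sept4, which was highest in MOL5/6a or MOL5/6d in every library (3769.7 CPM in MOL5/6d of control dOLCs, 3670.3 CPM in MOL5/6a of control vOLCs and 4015 CPM in MOL5/6d of ectopic vOLCs). In control dOLCs, MOL5/6a and MOL5/6d did not differ beyond their intervals for Sept4 (3623 to 3831 and 3705 to 3835 CPM), and neither did MOL2a and MOL2b for Sept8 (695 to 770.2 and 693 to 776 CPM).

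Sept2 was highest in MOL5/6c or MOL5/6d of every library, at 127 CPM in MOL5/6c of control dOLCs, 168 CPM in MOL5/6d of control vOLCs and 143 CPM in MOL5/6c of ectopic vOLCs. Sept7 was highest in MOL5/6a of both control libraries (1847 and 1544 CPM) and in MOL2a of ectopic vOLCs (1726 CPM).

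The clusters were also ordered by each gene's mean CPM over the libraries with at least 20 cells, with the lowest and highest library in brackets. Sept4 ran from 3719.6 CPM (3670.3 to 3763) in MOL5/6a, 3644 CPM (3147 to 4015) in MOL5/6d and 3311 CPM (2829.8 to 3867) in MOL1 down to 2759 CPM (2723 to 2787) in MOL2a, 2441 CPM (2285 to 2597) in COP/NFOL/MFOLa and 496 CPM (372 to 713) in OPCs. The ranges of neighbours overlapped from MOL5/6a to MOL5/6c, and each of the last 3 clusters lay wholly below the one before it. Sept8 had breaks in other places, between MOL2b at 778 CPM (734 to 822) and MOL5/6a at 595 CPM (579 to 615), and between MFOLb at 481 CPM (460.4 to 501) and COP/NFOL/MFOLa at 185 CPM (174 to 197). Anln broke between MOL2b at 363 CPM (305 to 421) and MOL5/6c at 175 CPM (156 to 192) and, like Sept8, between MFOLb at 129.7 CPM (119 to 140.1) and COP/NFOL/MFOLa at 33.4 CPM (26.8 to 40.1). In Sept7 the range of OPCs at 893 CPM (757 to 1019) lay wholly below that of the next cluster, MFOLb at 1165 CPM (1026 to 1305). Within libraries the log2 ratio of MFOLb to OPCs was 0.36 (0.23 to 0.48) in control dOLCs and 0.18 (-0.017 to 0.38) in ectopic vOLCs. The ectopic interval includes equal levels. In Sept2 the first clusters were MOL5/6c at 145 CPM (127 to 164), MOL5/6d at 131 CPM (111 to 168) and MOL2b at 109.8 CPM (109 to 111). In the libraries that have both, MOL5/6d and MOL2b were close, and the other neighbours overlapped.

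**Figure D3:**
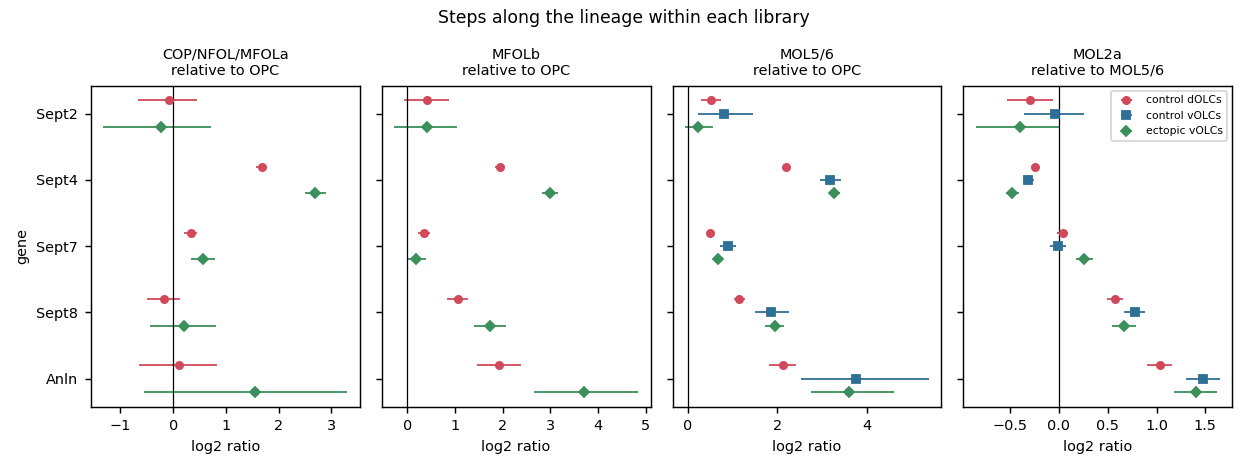
Log2 ratio of each gene's CPM between 2 clusters within a library (horizontal axes, one scale per panel) with exact 95% conditional binomial intervals. Circles are control dOLCs, squares control vOLCs and diamonds ectopic vOLCs. Sept4 alone lies above 1 for COP/NFOL/MFOLa relative to OPCs in both libraries drawn, and Anln and Sept8 lie to the right of 0 for MOL2a relative to MOL5/6.

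The question behind the libraries was whether ectopic vOLCs, which take over the territory of ablated dOLCs, resemble the cells they replace. Within MOL5/6, the state that holds most mature cells, Anln was lower in ectopic vOLCs than in both controls. Its level was 160.2 CPM (154 to 167) in control dOLCs, 172 CPM (158 to 188) in control vOLCs and 110.4 CPM (104 to 117) in ectopic vOLCs, from 2377, 503 and 1167 UMIs. The ectopic level was the lowest and did not overlap either control, whose intervals overlapped each other. On the log2 scale ectopic vOLCs lay at -0.54 (-0.64 to -0.44) relative to control dOLCs. Relative to control vOLCs they lay at -0.64 (-0.79 to -0.49), and both comparisons use the same ectopic library. The control libraries differed by 0.10 (-0.037 to 0.24), control vOLCs being the higher.

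Anln was the 1 member of 5 at or below a log2 ratio of -0.5 in each of these ectopic comparisons. This fold was set beside all genes that passed a filter on low values, which asked for 50 UMIs over the pair of libraries and for detection in 10% of the cells of one of them. Among these genes 14.8% lay at or below -0.5 against control dOLCs, and 15.8% did so against control vOLCs, so that 1 member of 5 was near the share of all genes. Between the control libraries none of the 5 members lay there, and 1.75% of genes did. All 5 members passed the filter in MOL5/6, and no member reached 0.5. Scaling by edgeR's TMM factors, which moved every ratio to control dOLCs up by 0.14, put Anln at -0.40, above the fold, and at -0.56 against control vOLCs. With it the genes at or below -0.5 and at or above 0.5 were 9.79% and 6.00% against control dOLCs, where they had been 14.8% and 2.05%. Against control vOLCs they were 12.4% and 5.20%, where they had been 15.8% and 2.57%, and between the controls they were 1.02% and 4.43%, where they had been 1.75% and 3.62%.

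The low Anln values were also seen cluster by cluster. Against control dOLCs its log2 ratio was below 0 in each of the 7 mature clusters, with an interval wholly below 0 in 5 of them. The estimates ran from -1.06 (-2.13 to -0.17) in MOL5/6b, from 10 ectopic UMIs, and -0.90 (-1.39 to -0.42) in MOL1 to -0.17 (-0.40 to 0.065) in MOL2a. Between them lay MOL5/6a at -0.54 (-0.79 to -0.28), MOL2b at -0.46 (-0.67 to -0.26), MOL5/6d at -0.32 (-0.49 to -0.15) and MOL5/6c at -0.30 (-0.74 to 0.11). Against control vOLCs it was below 0 in each of 6 mature clusters, with an interval wholly below 0 in 5 of them, while that of MOL5/6c, at -0.19 (-0.75 to 0.37), included 0. The other estimates were -1.41 (-2.49 to -0.49) in MOL5/6b, from 10 ectopic UMIs, -1.22 (-1.88 to -0.55) in MOL1, -0.71 (-0.95 to -0.48) in MOL2a, -0.67 (-0.92 to -0.43) in MOL5/6a and -0.56 (-0.99 to -0.10) in MOL5/6d. In MOL2a the controls themselves differed, control vOLCs standing 0.55 (0.38 to 0.71) above control dOLCs, whereas the interval for ectopic vOLCs against control dOLCs included 0. The MOL1 values come with the dissociation genes given above, whose part in them was not tested. Anln was the 1 member of 5 below 0 in each of the 7 mature clusters against control dOLCs, as were 12.6% of the genes that passed the filter in all of them. In the 6 mature clusters that could be compared with control vOLCs, Anln and Sept2 were below 0 throughout, as were 11.7% of genes. Between the controls it was Sept7 that lay below 0 in all 6, as did 7.93% of genes.

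Transcript length moved with these ratios. The longest annotated Anln transcript has 4605 bases, and the 200 genes nearest in length had a median log2 ratio of -0.26 against control dOLCs and -0.23 against control vOLCs in MOL5/6. Anln differed from these medians by -0.28 and -0.41 on the log2 scale. For genes near the 2136 bases of the longest Sept4 transcript the median against control dOLCs was 0.10. Sept7 and Sept8, whose longest transcripts have 4569 and 4563 bases (near that of Anln), lay above the median of their length group by 0.26 and 0.49 against control dOLCs. The part of length in the Anln difference was not otherwise tested.

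Sept4 in MOL5/6 was highest in ectopic vOLCs (3841 to 3916 CPM), above control dOLCs (3243 to 3302 CPM) and control vOLCs (3311 to 3444 CPM). This put it at log2 ratios of 0.25 (0.23 to 0.26) and 0.20 (0.17 to 0.23) to these controls. Inside the 4 subclusters, however, the ratio to control dOLCs was 0.014 (-0.032 to 0.061) in MOL5/6a, 0.047 (-0.090 to 0.18) in MOL5/6b, 0.11 (0.019 to 0.21) in MOL5/6c and 0.091 (0.060 to 0.12) in MOL5/6d. The subclusters in which Sept4 was high held 900 (MOL5/6a) and 837 (MOL5/6d) of the 1842 ectopic MOL5/6 cells, but 333 and 569 of the 3777 control dOLCs. Against control vOLCs the ratio was 0.036 (-0.011 to 0.083) in MOL5/6a and 0.35 (0.25 to 0.45) in MOL5/6d. With each subcluster given the same weight, the ratio to control dOLCs was 0.065, and with TMM factors it was 0.38. The 11 mature oligodendrocyte markers had median log2 ratios in MOL5/6 of 0.21 to control dOLCs and 0.093 to control vOLCs. Their part in the Sept4 and Sept8 values of MOL5/6 was not tested.

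Sept8 in MOL5/6 was 0.23 (0.18 to 0.28) higher on the log2 scale in ectopic vOLCs than in control dOLCs, and 0.22 (0.14 to 0.30) higher in control vOLCs than in control dOLCs. The ectopic and control vOLC levels did not differ beyond counting error, with a log2 ratio of 0.0098 (-0.069 to 0.089). With TMM factors the ratios of ectopic vOLCs became 0.37 to control dOLCs and 0.095 to control vOLCs. Inside the subclusters ectopic vOLCs lay above control dOLCs by 0.088 (-0.029 to 0.21) in MOL5/6a, 0.23 (-0.11 to 0.55) in MOL5/6b, 0.21 (-0.028 to 0.44) in MOL5/6c and 0.17 (0.085 to 0.25) in MOL5/6d, and only the last interval excludes 0. Control dOLCs were also lowest in MOL2a cells, where control vOLCs were 0.42 (0.31 to 0.54) and ectopic vOLCs 0.32 (0.19 to 0.46) above control dOLCs.

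Ectopic Sept7 in MOL5/6 as a whole gave log2 ratios of 0.00040 (-0.030 to 0.030) to the dorsal and 0.035 (-0.015 to 0.085) to the ventral control. In each of the 4 subclusters ectopic vOLCs lay below control dOLCs, with -0.37 (-0.44 to -0.31) in MOL5/6a at one end and -0.10 (-0.15 to -0.055) in MOL5/6d at the other. The ratio of the sum to control dOLCs also moved with the setting, to 0.14 with TMM factors and -0.056 with cells thinned to 1000 UMIs. For Sept2 the whole of MOL5/6 gave -0.16 (-0.28 to -0.045) and -0.26 (-0.45 to -0.078). The first became -0.023 with TMM factors, -0.041 less the median of genes of like length and -0.39 with thinning. Against control dOLCs Sept2 lay at -0.69 (-1.01 to -0.36) in MOL5/6a but at 0.27 (-0.61 to 1.03) in MOL5/6b, 0.17 (-0.29 to 0.61) in MOL5/6c and 0.022 (-0.16 to 0.21) in MOL5/6d, whose intervals include 0. Against control vOLCs it was below 0 in all 4 subclusters, with intervals that exclude 0 in MOL5/6a, at -0.49 (-0.83 to -0.15), and MOL5/6d, at -0.58 (-1.01 to -0.11).

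Other genes that act with septins were examined in the same MOL5/6 cells. Of the 6 septin effectors examined (the small GTPase Cdc42 and its effectors Cdc42ep1 to Cdc42ep5, which bind septins), 3 passed the filter and none lay beyond 0.5 in either direction against either control, where 14.8% and 15.8% of genes lay at or below -0.5. Cdc42ep1 was 139.6 CPM in control dOLCs, 134 CPM in control vOLCs and 125 CPM in ectopic vOLCs, and the ectopic level, also its lowest, relative to control dOLCs was -0.16 (-0.26 to -0.062) on the log2 scale. Cdc42 itself was 304, 350.4 and 391 CPM in the same order, the corresponding log2 ratio being 0.36 (0.30 to 0.42).

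**Figure D4:**
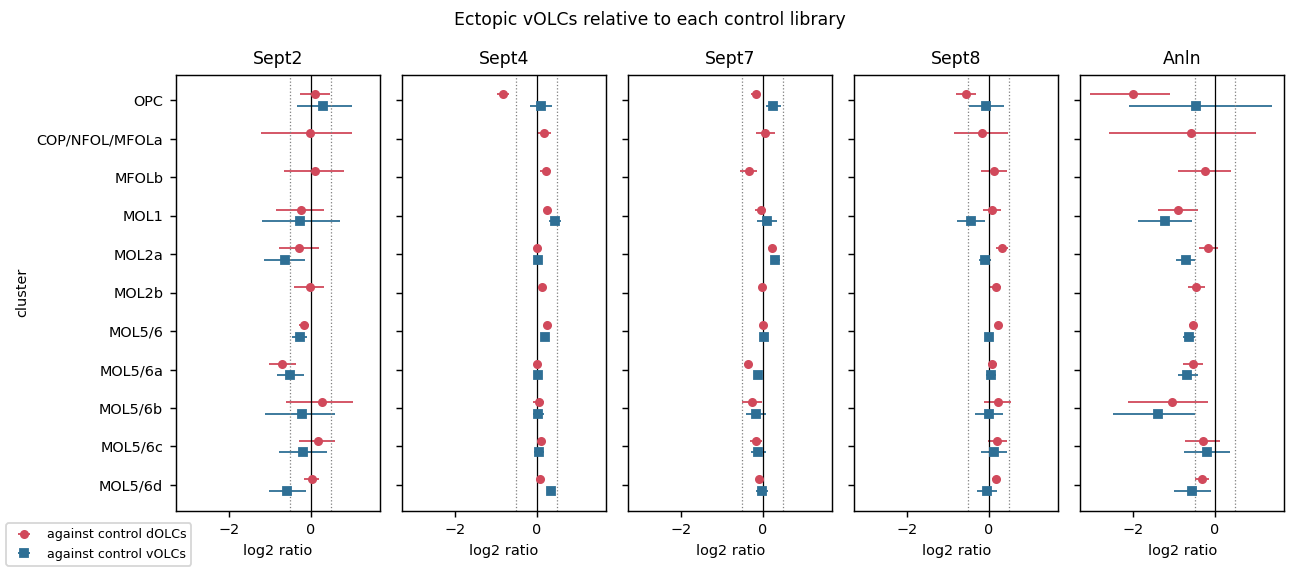
Ectopic vOLCs relative to control dOLCs (circles) and control vOLCs (squares) as log2 ratios for each gene (horizontal axis) by cluster (vertical axis), with exact 95% conditional binomial intervals, and dotted lines at -0.5 and 0.5. All Anln points lie left of 0, those of OPCs and COP/NFOL/MFOLa cells resting on 4 to 11 ectopic UMIs, whereas Sept4 points in MOL5/6a to MOL5/6c lie within 0.12 of 0 and its OPC points differ between the 2 controls.

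OPCs of control dOLCs had the highest level of Sept4, Sept7, Sept8 and Anln among the 3 libraries. Sept4 in OPCs had intervals of 681 to 746 CPM in control dOLCs, 315 to 438 CPM in control vOLCs and 366 to 438 CPM in ectopic vOLCs. Control dOLCs were highest and did not overlap the others, which overlapped each other. Set against control dOLCs, ectopic vOLCs had log2 ratios of -0.83 (-0.98 to -0.69) for Sept4, -0.56 (-0.81 to -0.32) for Sept8 and -2.01 (-3.06 to -1.11) for Anln. Sept7 gave -0.17 (-0.28 to -0.073) and Sept2 0.11 (-0.26 to 0.48). So 3 of 5 members lay at or below -0.5, as did 7.45% of genes that passed the filter. Anln passed it only through control dOLCs, where 10.1% of OPCs had a UMI, and without it 2 of the other 4 members lay there.

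For control vOLCs against control dOLCs the log2 ratios were -0.94 (-1.19 to -0.69) for Sept4, -0.50 (-0.90 to -0.12) for Sept8, -1.54 (-3.20 to -0.27) for Anln, -0.43 (-0.60 to -0.25) for Sept7 and -0.19 (-0.86 to 0.41) for Sept2. Here 2 of 5 members lay at or below -0.5, Sept8 falling just short at -0.497, against 15.4% of genes. Anln again passed the filter only through control dOLCs, and without it 1 of the other 4 members, Sept4, lay there. Both comparisons use the control dOLC library. Between ectopic and control vOLCs, the log2 ratios were 0.11 (-0.16 to 0.38) for Sept4, -0.061 (-0.48 to 0.38) for Sept8, 0.25 (0.067 to 0.44) for Sept7 and 0.30 (-0.35 to 1.00) for Sept2. None of the 4 members that passed the filter lay at or below -0.5, against 13.5% of genes, and Anln, with 5 and 11 UMIs, was outside the filter at -0.47 (-2.11 to 1.41).

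Markers of mature oligodendrocytes moved with these differences. In OPCs the 11 markers summed to 10337 CPM in control dOLCs, 5323 CPM in control vOLCs and 4857 CPM in ectopic vOLCs, none of them at 0 in any library. All 11 lay at or below a log2 ratio of -0.5 in ectopic vOLCs against control dOLCs (median -1.02) and in control vOLCs against control dOLCs (median -0.996), and 1 of 11 did between ectopic and control vOLCs (median -0.030).

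The members were therefore also set against these markers, a comparison chosen after seeing the data. Per 1000 marker UMIs, Anln had 3.57, 2.38 and 1.88 UMIs in OPCs of control dOLCs, control vOLCs and ectopic vOLCs and 3.29, 3.24 and 1.95 in MOL5/6 of the same libraries. Its OPC intervals (2.90 to 4.36, 0.773 to 5.55 and 0.940 to 3.37) contained the MOL5/6 value in every library. For Sept4 the values were 69.0 (65.9 to 72.2), 70.0 (59.1 to 82.2) and 82.5 (75.3 to 90.3) in OPCs and 67.2, 63.5 and 68.6 in MOL5/6. Its OPC intervals contained the MOL5/6 value in both control libraries and lay wholly above it in ectopic vOLCs. Sept7 stood far from its MOL5/6 values, with 98.6, 142 and 186 in OPCs and 29.5, 26.4 and 25.5 in MOL5/6. So did Sept8, with 21.4, 29.5 and 31.0 in OPCs and 10.1, 10.8 and 10.2 in MOL5/6.

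At the MOL5/6 proportion to the markers, Sept4 in OPCs would stand at 694, 338 and 333 CPM in the 3 libraries. The remainders of the measured level above this were 19.2 CPM (-12.7 to 52.3), 34.6 CPM (-23.2 to 99.9) and 67.8 CPM (32.8 to 105). The 3 intervals overlapped, and those of both controls included 0. The remainders depend on which markers are summed. For Sept8 the remainders were 117, 99.8 and 101 CPM, and for Sept7, 714, 617 and 779 CPM. Without the 10% of OPCs of each library richest in the markers, the ectopic to control dOLC ratio was -0.59 for Sept4, -0.45 for Sept8 and -1.57 for Anln. With only OPCs at or under the control vOLC median share of Mbp and Mobp (178, 61 and 160 cells), a setting chosen after seeing the data, it was -0.47 for Sept4, -0.31 for Sept8 and -1.20 for Anln. Of the 3 members at or below -0.5, Sept8 was thus no longer there in the first setting, and neither Sept4 nor Sept8 was in the second. Anln had 11 ectopic UMIs before any OPCs were left out and passed the filter only through control dOLCs. The share of all genes at or below -0.5 was not computed for these settings. These values are descriptions. The source of the marker UMIs in OPCs and their part in these differences were not tested.

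**Figure D5:**
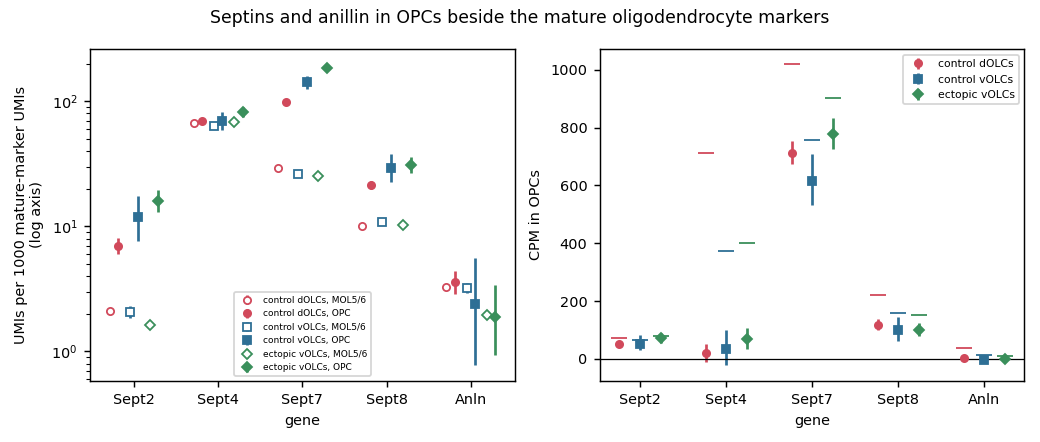
Left, UMIs of each gene per 1000 UMIs of the 11 mature oligodendrocyte markers (log axis) in MOL5/6 (open symbols) and OPCs (filled symbols) of each library, with exact 95% Poisson intervals for the gene's count. Right, CPM of each gene in OPCs (short lines) and what remains after taking off the level at the MOL5/6 proportion to the markers (symbols, intervals for the OPC count only). Open and filled symbols lie close for Anln and, except in ectopic vOLCs, for Sept4, and far apart for Sept7, Sept8 and Sept2.

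The share of cells with a UMI was also counted. With every cell thinned to 1000 UMIs to remove depth, Anln was seen in 3.75, 1.65 and 0.606% of OPCs in control dOLCs, control vOLCs and ectopic vOLCs, in 14.6, 16.8 and 10.7% of MOL5/6 cells and in 27.1, 41.3 and 21.7% of MOL2a cells. Before thinning these shares were 10.1, 4.13 and 3.33%, 41.9, 55.1 and 41.0% and 65.5, 94.97 and 78.3%, at median depths of 2795 to 3454 UMIs per OPC and 3491 to 5479 UMIs per MOL5/6 cell. The unthinned MOL5/6 shares of control dOLCs and ectopic vOLCs were close to each other, whereas the thinned share was lower in ectopic vOLCs. Sept4 was seen in 44.9, 38.0 and 31.8% of thinned OPCs and 94.3, 94.8 and 97.1% of thinned MOL5/6 cells. The annotation names every cluster as one of the oligodendrocyte lineage, and no separate cluster of a cell type that should lack the genes was at hand to measure free RNA.

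Anillin and the septins also serve cell division, for which the cycling OPC cluster offered 17, 3 and 11 cells. Anln had 6, 0 and 6 UMIs in them, that is 93.6 CPM (34.3 to 204) in control dOLCs and 127 CPM (46.7 to 277) in ectopic vOLCs, while the 3 cells of control vOLCs, with 7919 UMIs in all, allow up to 378.8 CPM by the limit of 3 counts for a count of 0, and 466 CPM by the exact Poisson interval. Among 12 genes of cytokinesis and the cell cycle, Racgap1, which helps to set the cleavage plane, measured 437 and 382 CPM in the same cells against 1.82 and 0.757 CPM in MOL5/6. Prc1, which bundles microtubules of the central spindle, was 452 and 425 CPM against 1.35 and 0.567 CPM. Anln in MOL5/6 was at 160.2 and 110.4 CPM. Of the 12 genes only Rhoa, which acts in many processes, passed the filter in MOL5/6, and Rhoa and Cit passed it in OPCs, with no gene beyond 0.5 in either direction in any comparison.

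The remaining septins of the table were mostly low or belonged to OPCs. Sept12 and Sept14 had no UMI in any library. Sept3, a septin of neurons, was 70.1 CPM in control dOLCs, 127 CPM in control vOLCs and 83.2 CPM in ectopic vOLCs in OPCs and 3.57, 6.51 and 2.55 CPM in MOL5/6, log2 ratios of MOL5/6 to OPCs of -4.29, -4.28 and -5.03. Sept6 and Sept11 also lay below their OPC level in MOL5/6, with log2 ratios of -4.14 and -1.97 in control dOLCs, from 8 and 72 UMIs in MOL5/6. In control vOLCs, Sept6 had 9 UMIs in OPCs and 0 in MOL5/6. Of these 9 septins, Sept1 alone passed the filter in MOL5/6, where ectopic vOLCs stood at 0.30 (0.10 to 0.51) relative to control dOLCs on the log2 scale. Sept3 alone passed it in OPCs, with 0.25 (-0.12 to 0.61) to control dOLCs and -0.61 (-1.11 to -0.087) to control vOLCs.

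Of the septin effectors, Cdc42ep2 was highest in control dOLCs among OPCs, with 242, 17 and 32 UMIs in OPCs, or 92.2 CPM in control dOLCs, 43.1 CPM in control vOLCs and 26.6 CPM in ectopic vOLCs, and 262, 237 and 275 CPM in MOL5/6. In OPCs its log2 ratio to control dOLCs was -1.79 (-2.37 to -1.26) for ectopic vOLCs, where it passed the filter only through control dOLCs (9.09% of ectopic OPCs had a UMI), and -1.10 (-1.90 to -0.39) for control vOLCs. The mature oligodendrocyte markers moved the same way in these comparisons (medians of -1.02 and -0.996), and their part in the Cdc42ep2 values was not tested. Cdc42ep4 went the other way in OPCs, with 51.8, 63.3 and 82.3 CPM and a ratio of 0.67 (0.28 to 1.05) for ectopic vOLCs against control dOLCs. Of the 4 effectors that passed the filter in that comparison, these were the 2 beyond 0.5, 1 in each direction, beside 7.45% of genes at or below -0.5 and 8.48% at or above 0.5, and without Cdc42ep2 it was 1 of the other 3. For control vOLCs against control dOLCs 2 of 4 lay at or below -0.5, Cdc42ep2 and Cdc42ep1 (-0.68 (-1.35 to -0.076)), as did 15.4% of genes.

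Across the 27 cluster and library sums with at least 20 cells, Sept8 and Anln were the pair of members most alike, with a Pearson r of 0.930 on log2(CPM + 10). Sept4 gave r = 0.741 with Sept7, 0.733 with Sept8 and 0.702 with Anln, and Sept2 gave at most 0.486 with any member. The sums share libraries and clusters of related cells, so these values are descriptions. Among 4100 genes, those nearest to Sept4 were Aspa (0.971), which splits the myelin metabolite N-acetylaspartate, the potassium channel gene Kcna1 (0.969) and Taldo1 (0.967), an enzyme of the pentose phosphate pathway. Those nearest to Sept8 were Spock3 (0.977), Hapln2 (0.972), a link protein of nodes of Ranvier, and Gstm7 (0.965). For Anln they were Inpp5f (0.943), Spg20 (0.943) and Plin3 (0.942), and Sept8 had rank 10. Sept7 was nearest to the glycolipid transfer protein gene Gltp (0.870), Fez1 (0.856) and Setd3 (0.854), and Sept2 to the ribosomal protein gene Rps27 (0.835), Aes (0.830) and Eif4g2 (0.826).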

How the data were processed

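Single-cell RNA was prepared from FACS-sorted OLCs with the 10x Genomics 3' chemistry and counted by the authors with Cell Ranger against mm10 (version 2.1.1 per the submitters' processing notes). The deposited table holds raw counts, that is UMIs per gene and cell, for 10081 barcodes, and the authors kept cells with more than 200 and fewer than 3000 genes and at most 15% mitochondrial counts, which gives exactly the 9291 cells of the deposited annotation. Clusters and libraries were taken from that annotation, and a file of annotation before filtering was not used. The 4 P0 single-nucleus samples were not analysed here.

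UMIs were summed per cluster and library with Python 3.11.15 and numpy 2.4.6, and intervals were computed with scipy 1.17.1. Since each condition was 1 library, no test between conditions was run. A gene was called past the fold at a log2 ratio of 0.5 or more in size, among genes with at least 50 UMIs over the pair of libraries together and a UMI in 10% of the cells of either. No doublet caller was run. Another cohort was discarded by the submitters for batch effects, per the labels. Scaling was also done with edgeR 4.0.16 (TMM) and DESeq2 1.42.0 (size factors). Near-identical transcripts were sought with BLAST+ 2.17.0. The ratio and interval were run on simulated Poisson sums with known folds. Those sums follow the interval's own assumption and hold no spread between cells or mice, so the run says nothing about such spread. The members and gene lists were chosen with earlier results of these data known. Named genes were the members, the lists given and the 3 genes most like each member. 1 gene of the planned mature oligodendrocyte list was dropped after the data were seen, for a reason that did not rest on its values, and is not reported here. Values that use the list were computed on the other 11 genes and are descriptions of those genes.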

Additional observations from a re-analysis of the deposited data

Results flagged for a closer look

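Sept4 and Sept8 differed in the sign of their ectopic to control dOLC ratio between cell states. Sept4 had a log2 ratio of 0.25 in MOL5/6 and -0.83 in OPCs. Sept8 had 0.23 in MOL5/6 and -0.56 in OPCs. They were picked out because the single library of each condition gave opposite directions in the 2 states, each with a counting interval that excludes 0. The difference between the states was not tested.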

How the results depend on the processing

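No paired analysis was possible because each group holds a single library, which leaves fewer than 2 pairs. Of 285 values of member ratios recomputed under another setting, 228 stayed within the counting interval of the reported value and 17 changed sign. For 16 of the 17 the reported interval included 0. These include Sept2 in OPCs against control dOLCs (-0.34 with the limit on Mbp and Mobp), Sept8 and Sept4 in OPCs against control vOLCs (0.33 and -0.18 with thinning) and Sept7 in MOL5/6 against control dOLCs (-0.23 with equal weight for each subcluster), all for ectopic vOLCs. The other was Sept4 in MOL5/6 of control vOLCs against control dOLCs, which became -0.061 with equal weight for each subcluster. In MOL5/6, ectopic vOLCs against control dOLCs, TMM and size factors shifted all genes by 0.14 and 0.15 on the log2 scale. They gave 0.38 and 0.39 for Sept4, 0.37 and 0.38 for Sept8, and -0.40 and -0.39 for Anln, which then no longer passed -0.5. Equal weight for each subcluster gave 0.065 for Sept4 and 0.17 for Sept8, and thinning gave 0.30 and 0.33. Averaging CPM over cells gave 0.27 for Sept4. Less the median of 200 genes of like transcript length, a setting chosen after seeing the data, the ratios were 0.15 for Sept4, 0.49 for Sept8 and -0.28 for Anln. For Sept4 in OPCs the same step gave -1.02, leaving out the 10% of OPCs richest in mature markers gave -0.59, and keeping only OPCs at or under the control vOLC median share of Mbp and Mobp (178, 61 and 160 cells, also chosen after seeing the data) gave -0.47 for Sept4, and -0.31 for Sept8. A 10% mitochondrial limit, leaving out the 6% of cells with the most UMIs, and leaving out shared barcodes kept the 30 member ratios recomputed, those of OPCs and of MOL5/6 as a whole, within their intervals. The share of genes at or below -0.5 in MOL5/6 against control dOLCs was 9.79% with TMM factors and 30.3% with no filter, and the share at or above 0.5 was 2.05, 6.00 and 6.41% in the reported, TMM and unfiltered settings. Without the filter, the shares at or below -0.5 were 29.8% against control vOLCs and 11.6% between the controls in MOL5/6. In OPCs they were 14.7% and 26.3% for ectopic vOLCs against the dorsal and ventral controls and 18.0% between the controls. Keeping only MFOLb cells with at most 1 UMI of the astrocyte markers, also chosen after seeing the data, left 5, 0 and 1 cells and was not compared. The cause of these changes was not tested beyond what each setting alters.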
